A study of Mus musculus with 8 samples.

Results

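The Fc gamma receptor genes of the mouse were examined together with their signalling and transport partners in bone marrow-derived macrophages. The set held 7 genes, chosen by symbol and all found in the table of 34432 gene rows: the activating receptors Fcgr1, Fcgr3 and Fcgr4, their signalling chain Fcer1g, the inhibitory receptor Fcgr2b, the inositol phosphatase Inpp5d, and the neonatal receptor Fcgrt. All 7 were among the 11675 genes that were tested. Macrophages had been grown from marrow, left untreated and taken on day 7, with 4 libraries per group. Controls carried a Vav-driven Cre recombinase, which is active in blood-forming cells. Double knockouts (DKO) carried Cdk8 flox/flox with Vav-iCre and a Cdk19 null allele, so both groups share a Vav-driven recombinase, while the Cdk19 allele is not limited to blood cells. These related kinases belong to Mediator, which links transcription factors to RNA polymerase, and activating genes were set against inhibitory ones with and without them. Values below are read counts scaled by a size factor, and errors are SDs over the 4 libraries of a group.

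Fc gamma receptors bind the constant part of immunoglobulin G and let macrophages take up antibody-coated particles. The activating receptors signal through the Fcer1g chain, whose immunoreceptor tyrosine-based activation motif (ITAM) is phosphorylated by Src-family kinases and recruits the kinase Syk. Fcgr2b carries an inhibitory motif (ITIM) of its own and recruits the phosphatase encoded by Inpp5d, also called SHIP1, which removes a phosphate from the lipid product of PI3-kinase. Fcgrt pairs with beta-2 microglobulin and returns immunoglobulin G from endosomes to the cell surface, which protects it from breakdown.

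The inhibitory and activating genes differ at the end of their coding sequence, which is shown because the comparison rests on telling these genes apart. The lines give the last 90 coding bases of GENCODE transcripts (mm10, minus strand, 5′ to 3′). Capitals mark the codons of the ITIM in Fcgr2b and of the ITAM in Fcer1g, found by the consensus of each motif.
Fcgr2b, chr1:170961017-170961201, coding exons 7 and 8 of 8: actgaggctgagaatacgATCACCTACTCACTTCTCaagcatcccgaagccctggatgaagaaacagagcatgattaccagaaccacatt
Fcgr3, chr1:171051671-171051760, coding exon 5 of 5: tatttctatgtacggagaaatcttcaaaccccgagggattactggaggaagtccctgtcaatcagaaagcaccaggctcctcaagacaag
Fcer1g, chr1:171229868-171231004, coding exons 3 to 5 of 5: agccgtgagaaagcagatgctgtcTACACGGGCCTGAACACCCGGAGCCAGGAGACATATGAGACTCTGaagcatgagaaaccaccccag
The coding sequence of Fcgr3 held no match to either consensus. That of Fcgr2b held 1 ITIM match, and the Fcer1g coding sequence held 1 ITAM match beside 1 match to the ITIM consensus outside the bases printed.

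Fcgr2b and Fcgr3 are near copies over their extracellular part, and reads from there can be divided between them. Their coding sequences were identical at 86.7% of 782 aligned bases, against 64.0% to 67.3% for the other pairs among the 4 receptors. Of the 31-base windows in the Fcgr3 coding sequence, 30.2% also occurred in an Fcgr2b transcript, and 23.5% of those in Fcgr2b occurred in an Fcgr3 transcript. These windows lay between coding bases 199 and 634 of 1020 in Fcgr2b and between 184 and 619 of 801 in Fcgr3, and no window was common to the ends printed above. No 31-base window was common to any other pair of the 4 receptors. The longest identical run, of 129 bases, spans coding exons 3 and 4 of both genes (chr1:170966674-170968081 in Fcgr2b and chr1:171054167-171057792 in Fcgr3, minus strand).
Identical run: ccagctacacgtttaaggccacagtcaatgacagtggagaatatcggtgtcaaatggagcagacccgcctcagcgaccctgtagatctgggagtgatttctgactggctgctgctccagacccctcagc

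Depth was 17856715 to 21353207 reads per library and did not separate the groups (exact permutation p = 0.171, two-sided, 4 against 4). Cdk19 fell from 1295 to 1682 in controls to 342 to 396 in DKO (log2 -1.95, limma adjusted p = 2.95e-08). Cdk8 stood between 408 and 466 in controls and between 294 and 429 in DKO (log2 -0.35, limma adjusted p = 0.0374), a call lost in 11 of 19 alternative settings, among them without control replicates 1, 2 or 4 or DKO replicates 2, 3 or 4 (limma adjusted p = 0.0551 to 0.104). The Cdk8 total includes exons outside the floxed part and does not check its removal. DKO libraries formed pairs, with 1 alike to 2 and 3 to 4, and the share of mitochondrial reads was 2.60% and 2.98% in the former and 4.27% and 4.19% in the latter. The labels do not say whether libraries came from separate animals or cultures. P-values therefore measure the spread between these libraries, which may be technical. Macrophage markers were abundant, with a summed level of 314485 to 331184 over 12 genes in controls and 247931 to 268386 in DKO, and Fcgr1 is itself on that list.

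The inhibitory receptor rose far more than any activating receptor. Fcgr2b rose 5.46-fold, Fcgrt 1.77-fold and Fcgr4 1.60-fold, Fcgr1 fell 1.30-fold, and Fcgr3, Fcer1g and Inpp5d did not pass the test. Thus 3 of 7 genes were called higher and 1 lower (limma, Benjamini-Hochberg adjusted p under 0.05), where 22.9% of all tested genes were called higher and 23.8% lower. The groups did not overlap for 4 of the 7 genes, against 42.9% of all tested genes. Calls were common in this comparison, at 46.6% of tested genes in either direction, so the count of called genes is near what the whole table gives. Across the whole table of tested genes, the median of the log2 fold changes was 0.01.

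**Figure D1:**
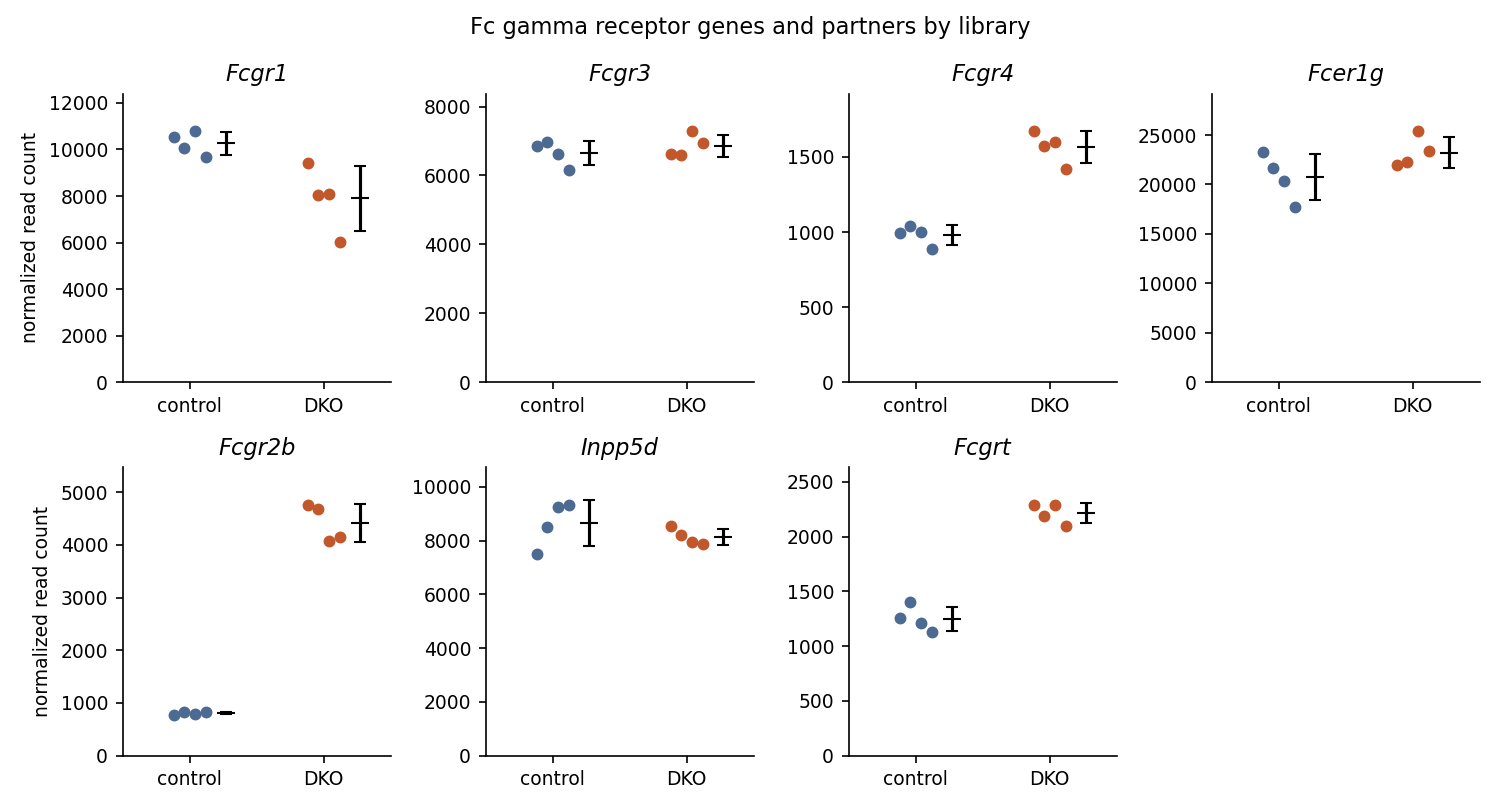
Normalized read counts (vertical axes, each from 0) of the 7 genes in the 4 control and 4 DKO libraries, 1 point per library in the order 1 to 4, with mean and SD as the black bar. Fcgr2b, Fcgr4 and Fcgrt are higher in all 4 DKO libraries, Fcgr1 is lower, and the groups overlap for Fcgr3, Fcer1g and Inpp5d.

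Among the activating receptors, Fcgr1 encodes the high-affinity receptor, which binds monomeric immunoglobulin G. Its counts were 10551, 10067, 10788 and 9665 in controls 1 to 4 and 9424, 8063, 8078 and 6017 in DKO 1 to 4. Every DKO library lay below every control, DKO 4 was lowest, and the nearest libraries of the groups differed little. Fcgr1 (ENSMUSG00000015947, chromosome 3, 96282909 to 96293969, mm10) had a mean of 10268 ± 502 in controls and 7895 ± 1406 in DKO. Its log2 fold change was -0.40 (SE 0.11, 95% interval -0.64 to -0.15, limma adjusted p = 0.0132).

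Fcgr3, a low-affinity receptor for immune complexes, is the activating near copy of Fcgr2b. It stood at 6857, 6972, 6621 and 6171 in controls and at 6623, 6599, 7285 and 6943 in DKO. The groups overlapped, and DKO 3 was the highest library and control 4 the lowest. Fcgr3 (ENSMUSG00000059498, chromosome 1, 171051174 to 171064935) had means of 6655 ± 355 and 6863 ± 323, and its log2 fold change of 0.04 had a 95% interval of -0.09 to 0.18 (limma adjusted p = 0.579). With total-count scaling the sign turned (-0.01), also without a call.

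Fcgr4 encodes a receptor of intermediate affinity that binds the IgG2a and IgG2b subclasses. It stood at 997, 1039, 1001 and 888 in controls and at 1672, 1572, 1603 and 1418 in DKO. All DKO libraries were higher than all controls, and library 4 was lowest in both groups. Fcgr4 (ENSMUSG00000059089, chromosome 1, 171018920 to 171029761) rose from 981.2 ± 65 to 1566 ± 107, with a log2 fold change of 0.67 (SE 0.08, limma adjusted p = 2.53e-05).

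Fcer1g, the chain that Fcgr1, Fcgr3 and Fcgr4 need for surface expression and signalling, was the most abundant of the 7 genes. It stood at 23290, 21626, 20378 and 17727 in controls and at 21937, 22220, 25391 and 23334 in DKO. The groups overlapped because control 1 was higher than DKO 1 and 2, and control 4 was the lowest library. Fcer1g (ENSMUSG00000058715, chromosome 1, 171229572 to 171234365) had means of 20755 ± 2345 and 23221 ± 1568 and a log2 fold change of 0.17 (95% interval -0.02 to 0.35, limma adjusted p = 0.124). Without control replicate 1 it was called higher (log2 0.22, limma adjusted p = 0.0407).

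On the inhibitory side, Fcgr2b was the gene with the largest change of the set. It stood at 775, 838, 800 and 825 in controls and at 4766, 4686, 4074 and 4146 in DKO. Controls lay close together, and the lowest DKO library was several times the highest control. In DKO, libraries 1 and 2 were higher than 3 and 4. Fcgr2b (ENSMUSG00000026656, chromosome 1, 170958617 to 170976547) rose from 809.8 ± 27.9 to 4418 ± 358, with a log2 fold change of 2.44 (SE 0.07, 95% interval 2.29 to 2.60, limma adjusted p = 4.23e-10). Of all tested genes, 80, or 0.685%, had a log2 fold change at least as large.

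The phosphatase that Fcgr2b recruits did not follow it. Inpp5d stood at 7490, 8525, 9254 and 9342 in controls and at 8532, 8225, 7943 and 7866 in DKO, and the DKO libraries lay within the control range. Inpp5d (ENSMUSG00000026288, chromosome 1, 87620312 to 87720507) had means of 8653 ± 858 and 8141 ± 303 and a log2 fold change of -0.08 (95% interval -0.24 to 0.08, limma adjusted p = 0.384). The related phosphatase gene Inppl1, which encodes SHIP2, stood at 2621 ± 188 and 2665 ± 101 (limma adjusted p = 0.773), a gene picked after its values were seen.

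Fcgrt, which acts in transport and not in phagocytic signalling, rose as well. It stood at 1252, 1399, 1213 and 1132 in controls and at 2289, 2188, 2291 and 2092 in DKO, so that every DKO library was higher than every control. Fcgrt (ENSMUSG00000003420, chromosome 7, 45092990 to 45103851) rose from 1249 ± 112 to 2215 ± 94.9, with a log2 fold change of 0.83 (SE 0.07, limma adjusted p = 3.25e-06).

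**Figure D2:**
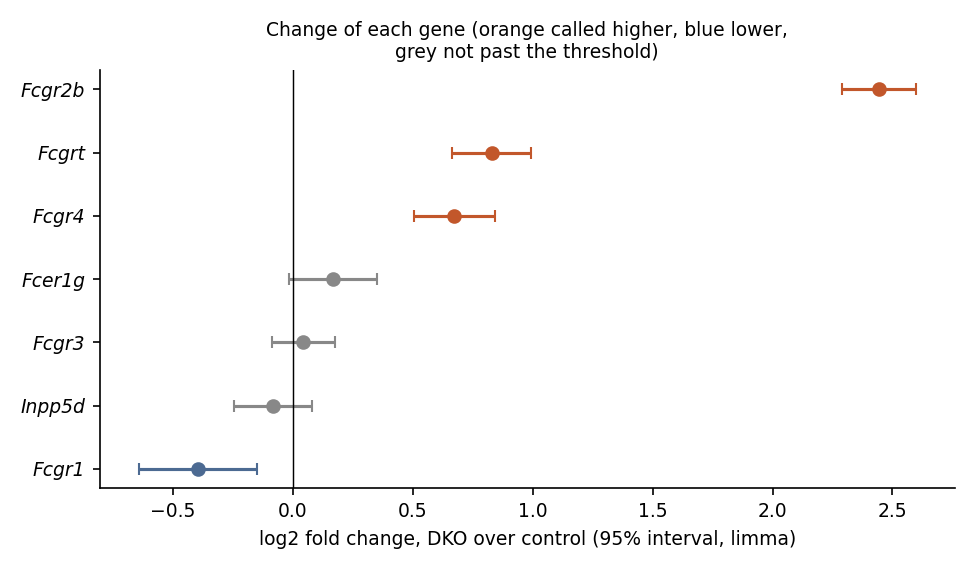
Log2 fold change of DKO over control for each of the 7 genes (horizontal axis), with the 95% interval from limma. Fcgr2b stands at 2.44, apart from Fcgrt at 0.83 and Fcgr4 at 0.67, and the intervals of Fcer1g, Fcgr3 and Inpp5d include 0.

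Each activating receptor was set against Fcgr2b within the same library, which removes the scaling of the libraries. The ratio of Fcgr1 to Fcgr2b reads was 13.6, 12.01, 13.5 and 11.7 in controls 1 to 4 and 1.98, 1.72, 1.98 and 1.45 in DKO 1 to 4. For Fcgr3 it was 8.84, 8.32, 8.27 and 7.48 in controls and 1.39, 1.41, 1.79 and 1.67 in DKO. For Fcgr4 it was 1.29, 1.24, 1.25 and 1.08 in controls and 0.351, 0.335, 0.393 and 0.342 in DKO. Fcgr4 thus had more reads than Fcgr2b in every control and fewer in every DKO library, whereas Fcgr1 and Fcgr3 kept more reads than Fcgr2b throughout.

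All these ratios were lower in DKO without overlap. The mean ratio fell from 12.7 ± 0.982 to 1.78 ± 0.253 for Fcgr1, from 8.23 ± 0.564 to 1.57 ± 0.198 for Fcgr3 and from 1.21 ± 0.0934 to 0.355 ± 0.0261 for Fcgr4. These are 7.12-, 5.26- and 3.41-fold falls (exact permutation p = 0.0286 for each, two-sided, and the same after Benjamini-Hochberg adjustment over the 3 ratios). This is the smallest p that 4 against 4 libraries can give. All 3 ratios have Fcgr2b as denominator, which itself rose 5.46-fold. Their falls largely restate that rise and are not 3 separate tests. The reads of Fcgr1, Fcgr3 and Fcgr4 together were 22.1 ± 1.55 times those of Fcgr2b in controls and 3.70 ± 0.329 times in DKO. That sum itself stood at 17904 ± 802 in controls and 16324 ± 1432 in DKO, with overlapping groups.

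**Figure D3:**
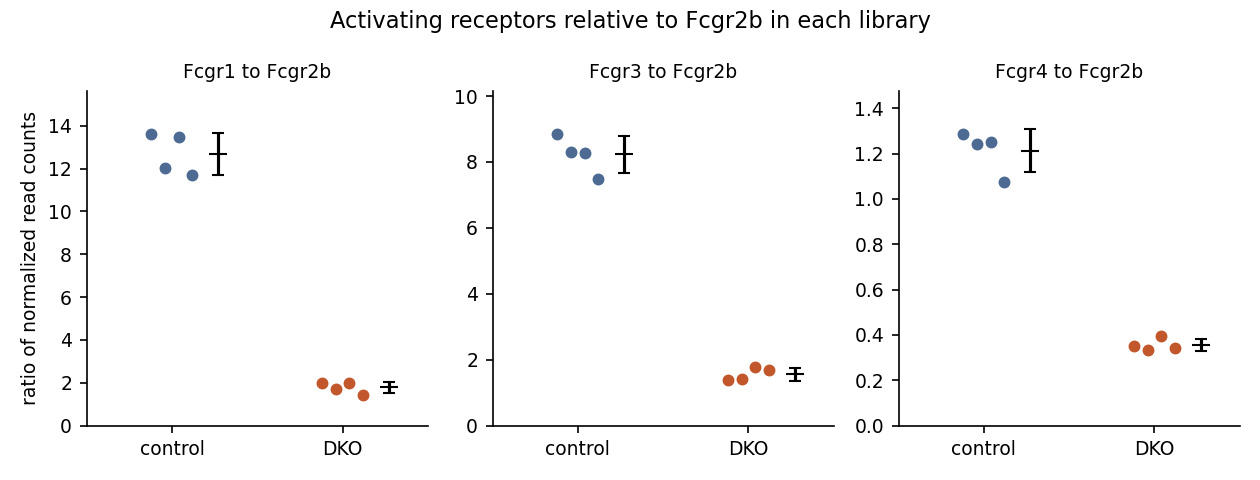
Ratio of normalized read counts of each activating receptor to Fcgr2b (vertical axes, each from 0) in the 4 control and 4 DKO libraries, with mean and SD as the black bar. All 4 DKO libraries lie below all controls in each panel.

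Reads from the stretches common to Fcgr2b and Fcgr3 may have been assigned to either gene. The sum of both genes does not depend on that division. It was 7632, 7810, 7421 and 6996 in controls and 11389, 11285, 11360 and 11090 in DKO, a 1.51-fold difference of the means without overlap. Fcgr2b made up 10.2% to 11.8% of the sum in controls and 35.9% to 41.8% in DKO.

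Levels were also compared between the genes per kilobase of the longest coding transcript. In controls the order was Fcer1g at 30388 ± 3433 normalized reads per kilobase, Fcgr3 at 4941 ± 263, Fcgr1 at 3966 ± 194, Inpp5d at 1753 ± 174, Fcgr4 at 781 ± 51.7, Fcgrt at 706 ± 63.1 and Fcgr2b at 228 ± 7.86. The neighbours Fcgr4 and Fcgrt overlapped between libraries, and Fcgr2b was lowest in every control. In DKO the levels of Fcgrt, Fcgr4 and Fcgr2b could not be ordered, at 1251 ± 53.6, 1247 ± 85.4 and 1247 ± 101.

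Transcripts of Fcgr2b range from 1084 to 3544 bases, so its place in that order depends on which length is used. Per kilobase of coding sequence, Fcgr2b was again lowest in controls, at 794 ± 27.3. In DKO it stood at 4332 ± 351, above Inpp5d at 2279 ± 84.7, Fcgr4 at 2096 ± 144 and Fcgrt at 2001 ± 85.8, and below Fcgr1 at 6514 ± 1160 and Fcgr3 at 8568 ± 403.

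Fcgr2b, Fcgr4 and Fcgr3 are neighbours on chromosome 1, with starts 42.4 and 88.4 kb from that of Fcgr2b, and Fcer1g starts 258 kb away. The 3 adjacent receptors had log2 fold changes of 2.44, 0.67 and 0.04 in that order along the chromosome. Around these 4 genes, 12 other genes with a start within 100 kb of a receptor start were tested. Of these, 2 were called higher and 1 lower, where 22.9% of all tested genes were higher and 23.8% lower. Pcp4l1, a small relative of Pcp4, fell from 601.6 to 157.1 on average (log2 -1.92, limma adjusted p = 6.80e-08). Dedd, a death effector domain protein, rose by log2 0.25 (limma adjusted p = 0.0328). The Fc receptor-like neighbours Fcrla and Fcrlb had too few reads to be tested.

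**Figure D4:**
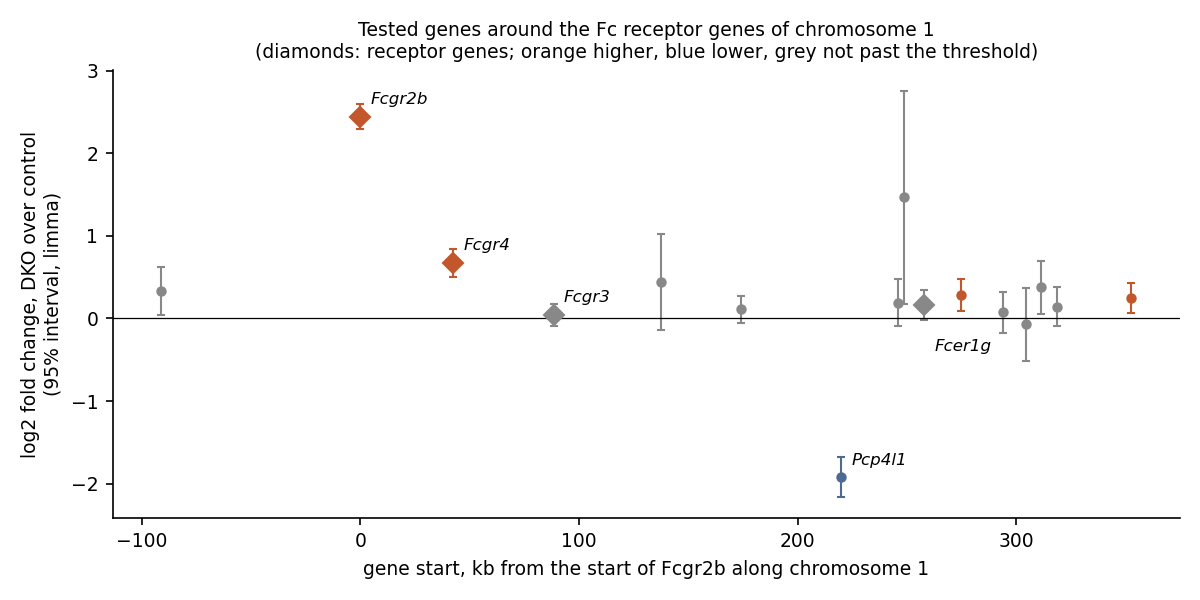
Log2 fold change of DKO over control with its 95% interval (vertical axis) for the 16 tested genes around the Fc receptor genes of chromosome 1, by distance of the gene start from that of Fcgr2b in kb. Fcgr2b at 2.44 and Pcp4l1 at -1.92 lie farthest from 0, and 1 gene that was not called lies high with a wide interval.

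Around Fcgrt on chromosome 7, 12 genes were tested, of which 7 were called higher and none lower, where 22.9% of all tested genes were higher and 23.8% lower. They included Prrg2 (log2 0.62, limma adjusted p = 0.000721), Rpl13a (log2 0.67, limma adjusted p = 0.00263), which encodes a ribosomal protein, and Nosip (log2 0.36, limma adjusted p = 0.00361). Near Fcgr1 on chromosome 3, 2 of 5 tested genes were higher and 1 lower, most of them histone genes with near-identical copies, whose reads are uncertain. No gene near Inpp5d was tested.

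The promoters of the activating receptors are shown because they hold the same short motif although these genes differed in their calls. Lines give the 250 bases before the RefSeq start (build GRCm38.p6, 5′ to 3′ on the gene's strand). Capitals mark GAGGAA on either strand, the core bound by the Ets factor Spi1 (PU.1), and TTCNNNGAA, the element bound by Stat factors.
Fcgr1, chr3:96293970-96294219, minus strand: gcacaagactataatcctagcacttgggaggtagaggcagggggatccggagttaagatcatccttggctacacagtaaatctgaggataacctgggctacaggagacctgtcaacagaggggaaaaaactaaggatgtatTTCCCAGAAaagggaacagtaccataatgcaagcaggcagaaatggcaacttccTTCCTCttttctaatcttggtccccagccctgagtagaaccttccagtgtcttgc
Fcgr3, chr1:171059404-171059653, minus strand: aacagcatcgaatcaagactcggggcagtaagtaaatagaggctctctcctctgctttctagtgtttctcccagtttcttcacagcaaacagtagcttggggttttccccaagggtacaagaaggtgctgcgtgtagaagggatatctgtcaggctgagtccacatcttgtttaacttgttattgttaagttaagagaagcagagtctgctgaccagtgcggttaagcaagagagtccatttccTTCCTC
Fcgr4, chr1:171018676-171018925, plus strand: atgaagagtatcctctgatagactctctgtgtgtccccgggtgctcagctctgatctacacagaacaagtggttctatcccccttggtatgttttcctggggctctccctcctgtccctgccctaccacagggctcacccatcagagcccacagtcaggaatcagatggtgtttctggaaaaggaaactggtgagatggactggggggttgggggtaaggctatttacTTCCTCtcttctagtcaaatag
GAGGAA occurred once in each of these windows and in that of Inpp5d, and in 23.3% of 26734 windows of the same length. TTCNNNGAA occurred in the Fcgr1 window, and in 7.21% of all windows. The windows of Fcer1g and Fcgrt held neither string. Nor did that of Fcgr2b, but 187 of its 250 bases are annotated exon, so it shows little of the sequence upstream of that gene. The Fcgr3 window, 1 of 2 RefSeq entries, lies inside the gene span given above, and 27 of its bases are annotated exon. All 7 genes were matched by symbol, and a match of letters is not evidence of binding.

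Regulators that are known to act on these genes moved in both directions. Of 19 tested genes on a list of such regulators, 6 were called higher and 7 lower, with a median log2 fold change of -0.03, against 46.6% called in either direction over all tested genes. Cebpa, a myeloid transcription factor, rose from 2998 ± 223 to 7513 ± 650 (limma adjusted p = 7.36e-08). Csf1r, the macrophage colony-stimulating factor receptor, fell 1.75-fold, and Tgfbr1, a TGF-beta receptor, fell from 7509 ± 1158 to 4079 ± 308. Spi1 fell 1.26-fold, from 9248 ± 553 to 7312 ± 278 (limma adjusted p = 0.000786).

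Interferon gamma is known to induce Fcgr1, so its receptor gene Ifngr1 was read, beside a general list of interferon-induced genes. That list is not specific to interferon gamma, so its calls do not measure that pathway. Ifngr1, the ligand-binding receptor chain, fell 1.66-fold, from 3724 ± 146 to 2250 ± 148 (limma adjusted p = 2.66e-06). Of 20 interferon-induced genes, 8 were higher and 2 lower, with a median of 0.18. Among all tested genes, 22.9% were called higher and 23.8% lower, or 46.6% in either direction. Cxcl10, a chemokine, fell from 567.4 ± 92.9 to 125.8 ± 32, whereas Rsad2, an antiviral enzyme, rose from 2677 ± 285 to 5010 ± 945. Bst2, also called tetherin, and Ifi204, a DNA sensor, rose by log2 0.65 and 0.48.

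The kinases and adaptors directly below the receptors were mixed as well. Of 25 tested genes, 8 were higher and 6 lower, with a median log2 fold change of -0.06. That was 56.0% called, against 46.6% of all tested genes. Syk, which docks to the phosphorylated ITAM, stood at 3028, 3298, 3469 and 3511 in controls and at 4196, 4133, 4136 and 4142 in DKO. It rose 1.25-fold without overlap (limma adjusted p = 0.00102). Fgr, a Src-family kinase of the kind that phosphorylates the motif, fell 7.29-fold, from 75.4 ± 13.1 to 10.3 ± 2.98 (limma adjusted p = 1.93e-05). Lyn, a relative that also phosphorylates ITIMs, stood at 9544 ± 439 and 8549 ± 497 (limma adjusted p = 0.0505), and it was called lower in 7 of 19 alternative settings, among them without control replicate 1 and without DKO replicate 2 (limma adjusted p = 0.0432 and 0.0441). Tec, a kinase that acts on phospholipase C, rose from 1070 ± 60.0 to 1903 ± 140, the adaptor gene Blnk from 1740 ± 28.6 to 2648 ± 95.5, and the ubiquitin ligase gene Cblb from 511.6 ± 53.4 to 841 ± 59.6.

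Of 20 PI3-kinase and inositol phosphatase genes, 4 were higher and 5 lower (median -0.12), a share of 45.0% called against 46.6% of all tested genes. Pik3cd, the leukocyte catalytic subunit p110 delta, fell from 1403 ± 71.9 to 1060 ± 79.8, and Pik3r5, a regulatory subunit of the gamma form, fell from 2976 ± 103 to 2293 ± 63.9. Akt2, a kinase activated by the lipid product, rose from 1903 ± 103 to 2489 ± 60.8, and Inpp5k, an inositol phosphatase gene, rose from 863.9 ± 63 to 1132 ± 92.3.

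Among inhibitory receptors and phosphatases other than Fcgr2b and Inpp5d, 8 of 24 tested genes were higher and 9 lower, with a median of 0.01. That was 70.8% called, against 46.6% of all tested genes. Cd300a, an ITIM receptor, rose from 1337 ± 78.2 to 2608 ± 176, and the lectin receptor gene Clec4a2 from 2173 ± 88.1 to 3363 ± 118. Siglece, a sialic acid-binding inhibitory receptor, fell from 255 ± 25.3 to 87.0 ± 9.77, and Dok2, an inhibitory adaptor, from 1756 ± 117 to 908.8 ± 30.9. Ptpn6, the tyrosine phosphatase SHP-1, fell 1.18-fold, from 5478 ± 273 to 4654 ± 182 (limma adjusted p = 0.00613). The rise of Fcgr2b was thus larger than that of any other tested gene on this list, the next being Cd33, picked after its values were seen, at log2 1.51.

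A list of other ITAM-type receptors and the adaptors they use changed in both directions. Of 19 tested genes, 8 were higher and 8 lower, with a median of 0.14. That was 84.2% called, against 46.6% of all tested genes. The adaptor gene Tyrobp, also called DAP12, rose 1.21-fold, from 12520 ± 1558 to 15164 ± 169 (limma adjusted p = 0.0142, and 0.0822 with the DKO pairs averaged). Clec7a, the beta-glucan receptor dectin-1, which carries an ITAM-like motif of its own, rose from 628.2 ± 113 to 1748 ± 89. Clec5a, a Tyrobp-coupled lectin, fell from 2561 ± 149 to 815.6 ± 81.8, and Clec4e, the mincle receptor coupled to Fcer1g, from 749.4 ± 90.4 to 291.2 ± 52.4. The related lectin gene Clec4d went the other way, from 7949 ± 1062 to 13151 ± 646 (limma adjusted p = 3.96e-05), a gene picked after its values were seen. Sirpb1c, a Tyrobp-coupled receptor from a family of near copies, fell from 2061 ± 88.4 to 820.2 ± 54.5, and its reads are uncertain.

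Other Fc receptors were scarce. Of 15 on the list, 3 had enough reads to be tested. Fcrl1, an Fc receptor-like gene known from B cells, rose 3.93-fold, from 150.1 ± 30.3 to 589.2 ± 25.4 (limma adjusted p = 4.91e-07). Trim21, an intracellular receptor for antibody, fell from 1044 ± 63 to 735.5 ± 62.2 (limma adjusted p = 0.000461). Fcrls, an Fc receptor-like scavenger gene, stood at 6304 ± 197 and 6661 ± 264 (limma adjusted p = 0.261).

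Of 30 genes of the phagocytic cup, 15 were called lower, 4 higher and 11 neither, with a median log2 fold change of -0.18, where 23.8% of all tested genes were lower and 22.9% higher. Pak1, a kinase activated by Rac, fell from 2254 ± 38.4 to 799.5 ± 106, Gsn, the actin-severing gelsolin, from 15032 ± 787 to 9808 ± 344, and Myo1e, a membrane-linked myosin, from 5514 ± 239 to 3650 ± 130. Marcks, an actin-binding substrate of protein kinase C, rose from 8497 ± 414 to 12936 ± 444. Of 7 oxidase genes, which make the oxidative burst of phagocytes, 1 was higher and 2 were lower. That was 42.9% called, against 46.6% of all tested genes. Cyba rose from 9534 ± 1135 to 16219 ± 269.6, and its partner Cybb fell from 14119 ± 1769 to 9946 ± 1080. Ncf4, a cytosolic oxidase subunit, fell from 2810 ± 384 to 1971 ± 247, and the proton channel gene Hvcn1 stood at 518.3 ± 56.4 and 597 ± 39.3 (limma adjusted p = 0.108, and 0.0410 under quantile normalization).

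Receptors for other opsonins and their ligands were called in 11 of 12 cases, 4 higher and 7 lower, with a median of -0.37, where 46.6% of all tested genes were called. C5ar1, the complement C5a receptor that is known to shift the balance of Fc gamma receptors, fell from 22859 ± 644 to 14543 ± 611 (limma adjusted p = 1.55e-06). Itgb2, the beta chain of complement receptor 3, fell from 15880 ± 928 to 8979 ± 724, Lrp1, a receptor for apoptotic cells and complexes, fell from 21937 ± 2324 to 12428 ± 1373, and C1qa, a chain of complement C1q, rose from 32304 ± 2458 to 50499 ± 2512.

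Of the partners of Fcgrt in IgG transport, all 5 tested genes were called higher, with a median of 0.30, where 22.9% of all tested genes were higher. B2m, the light chain of the neonatal receptor, rose 1.23-fold, from 75966 ± 5788 to 93543 ± 3903 (limma adjusted p = 0.00285), but under quantile normalization it stood at log2 -0.03. The endosomal GTPase gene Rab7 rose from 10392 ± 127 to 14397 ± 371, Rab5a from 2284 ± 98.5 to 2743 ± 85.1 and Rab11a from 5485 ± 467 to 6715 ± 400.

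**Figure D5:**
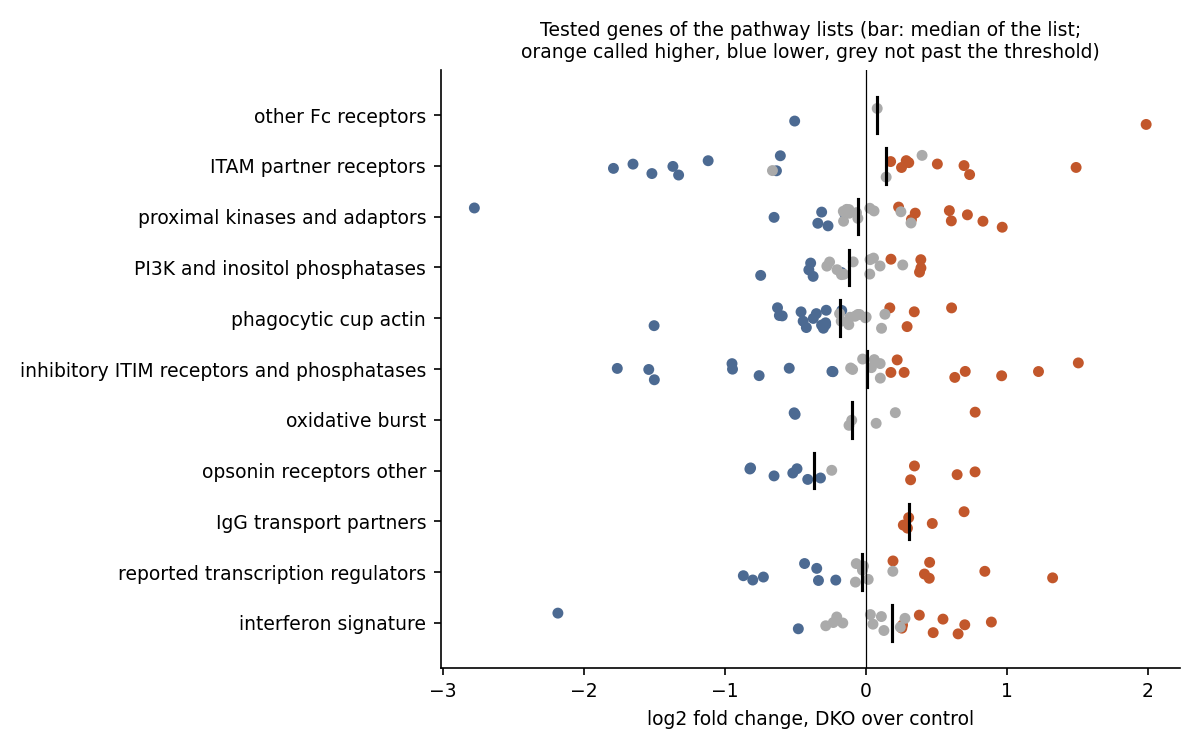
Log2 fold change of DKO over control (horizontal axis) for each tested gene of the 11 lists of partner genes, 1 point per gene, with the list's median as a black bar. Genes lie on both sides of 0 in each list other than the IgG transport partners, and the medians run from -0.37 to 0.30.

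In these bulk libraries, fewer cells of a type and less RNA per cell cannot be told apart. Marker lists of other cells that use Fc receptors were read beside the changes above. Of 8 monocyte markers, 4 fell and none rose, with a summed level of 15391 to 16118 in controls and 2662 to 3303 in DKO. Of 8 tested neutrophil markers, 7 fell and none rose, with a summed level of 2370 to 3910 and 999.8 to 1262 over the 10 genes of the list. Over all tested genes, 23.8% were called lower and 22.9% higher. The part of monocytes and neutrophils in the change of any receptor was not tested.

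B cells, in which Fcgr2b is the main Fc gamma receptor, left few reads. Of 8 B cell markers, Blk was listed at 0 in every library and 5 in all stayed below 10, and the summed level was 246 to 305 in controls and 122 to 197 in DKO. The defining NK cell markers Ncr1, Prf1, Gzma, Gzmb and Eomes were listed at 0, with a summed level of at most 18.1 over 8 genes. Mast cell and basophil markers summed to at most 76.2 in any library. Of 8 T cell markers, Cd3e, Cd3d, Cd3g and Trac were listed at 0, and 1 of the 4 tested was higher, with a summed level of 67.7 to 98.4 in controls and 182 to 212 in DKO. Of 9 dendritic cell markers, 4 stayed below 10, and 1 of the 3 tested was higher, with a summed level of 237 to 347 in controls and 363 to 416 in DKO. The part of these cells in the receptor values was not tested either. Of the osteoclast markers, 1 of the 5 tested was higher and 2 were lower, with sums of 1324 to 1463 in controls and 1286 to 1487 in DKO. For these small counts, the shares over all tested genes were 22.9% higher and 23.8% lower.

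Genes whose pattern was nearest to each receptor gene were sought among 9972 protein-coding genes with a mean of at least 50. Likeness was the root mean square difference, over the 8 libraries, of log2(value + 1) profiles centred on the control mean, so 0 is an identical pattern. Nearest to Fcgr2b were Cd83, an activation marker of antigen-presenting cells, at 0.111, the macrophage elastase gene Mmp12 at 0.135 and Wfdc17 at 0.157. Cd83 stood at 134.0 ± 9.14 and 736.9 ± 39.7, and Mmp12 at 1018 ± 86.7 and 4973 ± 367. Nearest to Fcgr1 was Iigp1, an interferon-inducible GTPase, at 0.0639, followed by Nbeal2 and Rnf213 at 0.0840 and 0.0841. Fcgr4 was nearest to Arhgap23 at 0.0539, Mocs2 at 0.0592 and Mfsd12 at 0.0593, and Fcgrt to Prxl2b at 0.0569, Tmem86a at 0.0578 and Rhob at 0.0614. For the genes without a call, the nearest were Rgs10, Cox6a1 and Anxa5 for Fcer1g, Pex2, Cpped1 and Elof1 for Fcgr3, and Eprs, Usp47 and Kbtbd4 for Inpp5d, at 0.0257 to 0.0485.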

How the data were processed

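Polyadenylated RNA was sequenced as pairs of 150-base reads, per the labels' protocols. Salmon 1.4.0, DESeq2 and build mm10 are named in the submitters' processing notes, but neither the annotation release nor strand use is given in the sources used here. The deposited values are a signal: the authors divided whole read counts by 1 size factor per library. Dividing back gave whole reads for 100% of values in each library (tolerance 0.01), used for depth and count models only. In 2 DKO libraries the size factor is near 1, which the decimals of the values still resolve. Of 34432 rows, 34415 were matched by gene ID to GENCODE M21.

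Tested genes reached 10 in 4 or more libraries. Limma 3.58.1 (R 4.3.3) was fitted to log2(value + 1) (trend and robust options, two-sided, genotype only), adjusted by Benjamini-Hochberg over all 11675. Fold changes printed with means are ratios of means, and log2 fold changes are on the log2(value + 1) scale. On recovered reads, limma's 2671 higher and 2773 lower genes compared with 2589 and 2782 by edgeR 4.0.16 and with 2787 and 2891 by DESeq2 1.42.0. Ratios were compared by exact permutation over 70 regroupings. The steps were tested on simulated data.

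Named genes were all members, Cdk8 and Cdk19, up to 4 genes per list with the smallest adjusted p, genes acting directly on the receptors, the 3 nearest in pattern, and neighbours within 100 kb, of which a few are not reported here. The members and lists were chosen with earlier results of these data known. Libraries of a group differed beyond sampling noise, so each counted as 1 replicate (chi-square per gene 8.20 to 38.2, and 8.20 and 9.29 within the DKO pairs against 19.5 to 26.7 across them). Near-identical copies, overlapping and antisense genes are uncertain.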

Additional observations from a re-analysis of the deposited data

Results flagged for a closer look

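In 4 of 120 groups of 4 libraries checked among the genes named above, 1 library lay far from the other 3 by Dixon's criterion (the gap to the nearest library over the whole range, at the 95% critical value), and chance flags about 1 group in 20. None was among the 7 Fc gamma receptor and partner genes or their ratios. Akt2 stood at 1750 in control 3 against 1940 to 1971 in the other controls. Blnk stood at 2507 in DKO 1 against 2682 to 2718. Lrp1 stood at 14476 in DKO 1 against 11554 to 11895. Syk stood at 4196 in DKO 1 against 4133 to 4142, a small gap within a narrow group.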

How the results depend on the processing

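Over 19 alternatives, the calls of Fcgr2b (log2 2.39 to 2.48), Fcgrt (0.78 to 0.89), Fcgr4 (0.62 to 0.72) and Fcgr1 (-0.49 to -0.27, limma, edgeR or DESeq2 adjusted p at most 0.0419) kept their direction and side of the threshold. Leaving out 1 library each gave 3 to 4 genes called higher and 1 lower. Fcgr3 turned from 0.04 to -0.0050 with total-count scaling, and B2m to -0.033 under quantile normalization (the cause was not tested). With a library left out, the log2 difference of the ratio to Fcgr2b was -2.89 to -2.74 for Fcgr1, -2.47 to -2.34 for Fcgr3 and -1.83 to -1.74 for Fcgr4, where the smallest possible p is 0.0571. With the DKO pairs averaged it was -2.83, -2.40 and -1.77 (smallest possible p 0.133). With a replicate block it was -2.84, -2.40 and -1.77 (smallest possible p 0.125). These p-values say nothing about stability. Without a filter on low values, 4 and not 2 other Fc receptors were called, since more genes were tested, and under quantile normalization 5 and not 3 oxidase genes. The replicate block called 2215 genes higher and 2434 lower, changed no call of the 7 genes, and the numbers do not pair the libraries (correlation of deviations -0.05 to 0.03 for equal numbers). Among 52 further genes, 21 of 988 results lost a call, among them those of Cdk8 and Tyrobp, and 8 gained one. Depth sets little limit here, since every one of the 7 genes had at least 775 normalized reads in each library.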
